A study of Mus musculus with 6 samples.

Results

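The genes described here encode the proteins that neutrophils store in their granules, read from bulk RNA-Seq of mouse CD4+ T cell preparations. There were 10 such genes among the 24223 listed in the counts. *Mpo*, *Elane*, *Prtn3* and *Ctsg* encode proteins of the primary granule, and *Ngp*, *Camp*, *Ltf*, *Lcn2*, *Mmp8* and *Chil3* are expressed later in neutrophil maturation. They were chosen by their levels in these same libraries, so their levels and differences are given as a description, with no test. All 10 were among the 13607 genes that passed the filter on low counts. *Mmp8* passed it through the Th17 libraries alone, and a gene that passes only where it is high has to differ, so passing the filter supports nothing.

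The series compared Naive CD4+ T cells with Th17 and Th1 cells made from them, with 2 replicate libraries of each cell type. The cells came from C57BL/6 mice 1 to 2 months old and, per the study's methods, were CD4+CD44- cells taken with a magnetic CD62L kit from lymph nodes and spleens that had been pooled. Naive libraries were made from the isolated cells. Th17 and Th1 cells were stimulated through CD3 and CD28 for 5 days. The Th1 medium held anti-IL-4 antibody, IL-12 and IL-2, and the Th17 medium held antibodies to IL-4 and IFN-γ together with TGF-β, IL-6, IL-1β and IL-23. By flow cytometry, the study found most but not all of the isolated cells to be naive CD4+ T cells. A part of each culture stained for its cytokine, IL-17A in Th17 and IFN-γ in Th1. The methods name no sort after culture, so a library holds RNA of every cell type that the isolation left and the culture kept. In such bulk samples, fewer cells of a type and less RNA per cell cannot be told apart.

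Neutrophils fill their granules in sequence. At the promyelocyte stage the primary, or azurophil, granules receive myeloperoxidase and the serine proteases neutrophil elastase, proteinase 3 and cathepsin G, and these genes are then shut off. At the myelocyte and metamyelocyte stages the secondary, or specific, granules receive lactoferrin, lipocalin 2, the cathelicidin precursor and collagenase, under the factor C/EBP-ε. T cells are not known as a main source of either class.

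The upstream sequences of 5 genes are shown because the granule genes are textbook targets of PU.1 and the C/EBP factors, and because both stages are represented. All 10 genes matched a RefSeq promoter. The sequences come from RefSeq (GRCm38.p6), run 5′ to 3′ on the gene's strand and start 250 bases before the RefSeq start site. Bases that a GENCODE vM21 exon of the same gene covers were left off the 3′ end. Capitals mark matches on either strand to the C/EBP letters TTGCNNAA, the PU.1 letters GAGGAA or the RUNX letters TGTGGT. *Elane* (chr10:79886062-79886246, plus strand) and *Ctsg* (chr14:56102575-56102824, minus strand) stand for the primary granule, and *Ngp* (chr9:110419558-110419746, plus strand), *Ltf* (chr9:111019042-111019270, plus strand) and *Mmp8* (chr9:7558179-7558428, plus strand) for the later stage.
Elane: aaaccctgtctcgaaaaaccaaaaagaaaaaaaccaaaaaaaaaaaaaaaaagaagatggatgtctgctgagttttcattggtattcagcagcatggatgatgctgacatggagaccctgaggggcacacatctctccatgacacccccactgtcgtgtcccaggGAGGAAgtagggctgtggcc
Ctsg: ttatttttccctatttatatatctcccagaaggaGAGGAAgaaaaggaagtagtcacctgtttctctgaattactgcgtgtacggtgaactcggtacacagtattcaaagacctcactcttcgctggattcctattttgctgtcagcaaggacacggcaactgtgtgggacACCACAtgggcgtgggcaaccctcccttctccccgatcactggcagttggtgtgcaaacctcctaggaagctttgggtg
Ngp: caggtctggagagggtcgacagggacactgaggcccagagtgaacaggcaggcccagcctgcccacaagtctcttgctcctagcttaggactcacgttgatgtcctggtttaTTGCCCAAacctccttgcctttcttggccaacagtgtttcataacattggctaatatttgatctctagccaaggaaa
Ltf: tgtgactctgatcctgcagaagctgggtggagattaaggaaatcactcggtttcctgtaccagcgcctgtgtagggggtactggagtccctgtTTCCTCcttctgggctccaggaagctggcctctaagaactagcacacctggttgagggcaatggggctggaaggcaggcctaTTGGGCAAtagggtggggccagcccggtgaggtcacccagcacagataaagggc
Mmp8: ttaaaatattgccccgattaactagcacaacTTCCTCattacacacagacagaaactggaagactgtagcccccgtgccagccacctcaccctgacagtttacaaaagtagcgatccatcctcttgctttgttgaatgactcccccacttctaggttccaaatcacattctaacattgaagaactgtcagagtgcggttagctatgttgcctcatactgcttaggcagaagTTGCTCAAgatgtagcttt

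The C/EBP letters were found in the 250 bases upstream of 4 of the 10 genes, which were *Ngp*, *Ltf*, *Lcn2* and *Mmp8*, against 9.56% of 32851 RefSeq promoters of the same length. None of the 4 primary granule genes held these exact letters in this window. For *Mpo*, 203 of the 250 bases lay inside the gene by GENCODE vM21. The PU.1 letters were found upstream of 7 of the 10 genes, among them *Mpo*, *Elane*, *Prtn3* and *Ctsg*, against 23.3% of all promoters. The RUNX letters were found upstream of *Ctsg* alone, against 14% of all promoters. In *Ngp* a second C/EBP match lay from position -11 to -4 relative to the start site, in the stretch left off above. The matches of *Elane* and *Prtn3* to the PU.1 letters lay from -85 to -80 and from -95 to -90. By GENCODE vM21 the windows of *Lcn2* and *Prtn3* lay inside the gene, so their matches are upstream of the RefSeq start site alone. None of these motifs overlapped another. A match describes the letters of this window and is not a site of binding. The lack of a match does not show that a site is absent.

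The files gave between 17742158 and 69080017 counts per library, and replicate 1 was the deeper library of each cell type. Levels are CPM, the counts of a gene relative to the total of its library as scaled by edgeR's TMM factors. A count of 3 in a library stands at between 0.0440 and 0.190 CPM. Intervals quoted below cover counting error only. They take each read as an independent molecule, which sequenced reads are not, so they may be too narrow. The labels give replicate numbers, and the methods call the replicates biological.

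In Naive cells, the primary granule genes were expressed and the later-stage genes were close to the limit of counting. In Th17 cells both groups were expressed. In Th1 cells both were low. Summed over *Mpo*, *Elane*, *Prtn3* and *Ctsg*, the level was 412 and 240.2 CPM in the Naive libraries, 236 and 225 CPM in Th17 and 16.6 and 17.3 CPM in Th1. Summed over the 6 later-stage genes, it was 2.33 and 0.693 CPM in Naive, 922 and 782 CPM in Th17 and 9.39 and 21.2 CPM in Th1. The primary sums of Th17 lay just under those of Naive, while the later-stage sums of the 3 cell types did not overlap.

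Within a library, the primary sum was 176.5 and 346.5 times the later-stage sum in Naive. In Th17 the order was turned, and the later-stage sum was 3.90 and 3.47 times the primary sum. On a log2 scale, the ratio of primary to later-stage sums was 7.95 ± 0.69 in Naive, -1.88 ± 0.12 in Th17 and 0.27 ± 0.79 in Th1 (SD, n = 2 each). The Th1 libraries lay on either side of 0, at 0.83 and -0.29. For Th1, then, the sign of this ratio rested on which library was read, and it was -0.52 without *Mpo*.

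**Figure D1:**
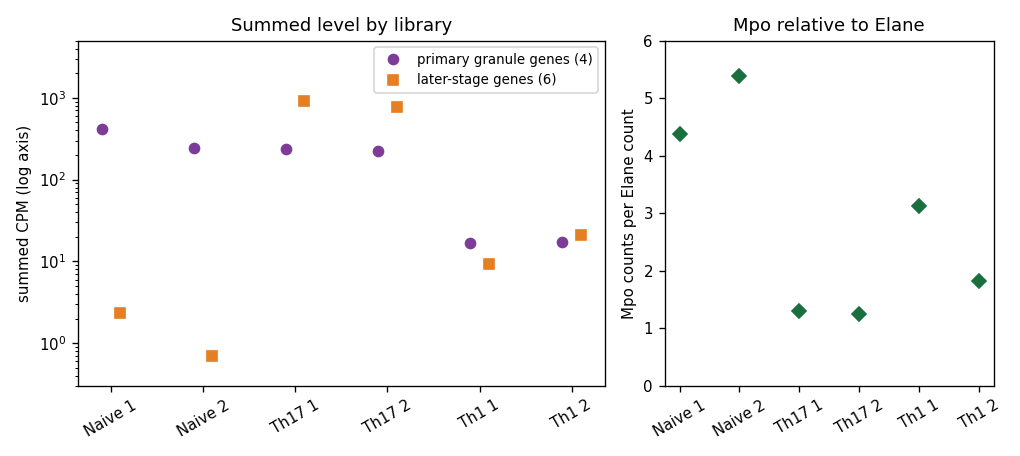
The left panel plots the summed CPM (log axis) of the 4 primary granule genes (circles) and the 6 later-stage genes (squares) in each of the 6 libraries, and the right panel the counts of Mpo per count of Elane. The primary sums are near each other in Naive and Th17 and low in Th1, the later-stage sums are high in Th17, and Mpo per Elane is 4.37 and 5.38 in Naive against 1.30 and 1.25 in Th17.

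*Mpo*, which encodes the peroxidase that makes hypochlorous acid, is found on chromosome 11 (GRCm38) between 87793581 and 87804413. Its level was 251 and 159 CPM in the Naive libraries, 68.1 and 58.7 CPM in Th17 and 6.76 and 7.52 CPM in Th1. No 2 cell types overlapped, and the order was Naive, Th17, Th1. The fitted log2 fold change was -1.69 in Th17 compared to Naive (SE 0.29), -4.85 in Th1 compared to Naive (SE 0.34) and -3.15 in Th1 compared to Th17 (SE 0.31).

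*Elane* encodes neutrophil elastase and lies on chromosome 10 from 79886247 to 79888215, downstream of *Prtn3*. Its level was 57.3 and 29.6 CPM in Naive, 52.5 and 46.9 CPM in Th17 and 2.17 and 4.11 CPM in Th1. The Th17 values lay between those of the Naive replicates, and both were above Th1. Its fitted log2 fold change was 0.19 in Th17 compared to Naive (SE 0.39) and -3.84 in Th1 compared to Naive (SE 0.45). With the replicates pooled, Th17 held 1.01 times the Naive level (95% exact interval 0.964 to 1.05). That interval leaves out the spread between replicates. The log2 fold change was 0.75 without Naive replicate 1 and -0.21 without Naive replicate 2.

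*Prtn3*, the gene of proteinase 3, lies on the same strand of chromosome 10 from 79874476 to 79883174, and by RefSeq 3138 bases separate it from *Elane*. It had 60.6 and 29.8 CPM in Naive, 64.6 and 60.5 CPM in Th17 and 3.23 and 2.65 CPM in Th1. The lower Th17 library fell just below the higher Naive library. Its log2 fold changes were 0.47 (SE 0.35) in Th17 and -3.93 (SE 0.40) in Th1, both compared to Naive.

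*Ctsg*, on chromosome 14 from 56099881 to 56102574, encodes cathepsin G. It had 43.2 and 21.5 CPM in Naive, 51.1 and 59.3 CPM in Th17 and 4.49 and 3.03 CPM in Th1. Both Th17 libraries were above both Naive libraries, and the Th1 libraries were the lowest. On the log2 scale the fold change was 0.77 in Th17 compared to Naive (SE 0.37) and -3.09 in Th1 compared to Naive (SE 0.40).

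*Mpo* thus differed from the 3 proteases in the comparison of Th17 with Naive. It made up 60.9% and 66.3% of the counts of the 4 primary granule genes in the Naive libraries, 28.8% and 26.03% in Th17 and 40.6% and 43.4% in Th1. Per count of *Elane*, the Naive libraries held 4.37 and 5.38 counts of *Mpo*, the Th17 libraries 1.30 and 1.25 and the Th1 libraries 3.12 and 1.83. The counts of *Prtn3* per count of *Elane* moved less between Naive, at 1.06 and 1.01, and Th17, at 1.23 and 1.29. For *Ctsg* the ratio to *Elane* was 0.754 and 0.727 in Naive and 0.974 and 1.265 in Th17. In Th1 the ratios to *Elane* differed between replicates, at 1.49 and 0.646 for *Prtn3* and 2.07 and 0.739 for *Ctsg*. These ratios were chosen after the values were seen and carry no test.

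*Ngp*, the gene of neutrophilic granule protein, lies on chromosome 9 from 110419747 to 110423012 and is a member of the cystatin superfamily. Its level was 0.293 and 0.0990 CPM in Naive, from 20 and 2 counts. In Th17 it was 266 and 190.3 CPM, and in Th1 4.25 and 12.5 CPM. The 3 cell types did not overlap, and the ratio between the Th1 replicates was larger than that between the Th17 replicates. The log2 fold change was 9.91 in Th17 (SE 0.70) and 5.10 in Th1 (SE 0.62), both compared to Naive.

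*Camp* encodes the precursor of the antimicrobial peptide cathelicidin and lies on chromosome 9 from 109847379 to 109849617. It had 10 and 0 counts in the Naive libraries, which is 0.147 CPM in replicate 1, and 0 counts allow up to 0.149 CPM in replicate 2. In Th17 it had 87.8 and 125 CPM, and in Th1 0.541 and 1.26 CPM. *Camp* was higher in Th17 replicate 2 than in replicate 1, where *Ngp*, *Ltf*, *Lcn2* and *Mmp8* were lower. The log2 fold change was 9.94 in Th17 (SE 0.70) and 2.90 in Th1 (SE 0.70) compared to Naive.

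*Ltf*, the gene of the iron-binding protein lactoferrin, lies on chromosome 9 from 111019271 to 111042767. It had 13 and 0 counts in Naive, or 0.191 CPM and at most 0.149 CPM. Its level was 213 and 150.0 CPM in Th17 and 1.04 and 1.39 CPM in Th1. The Th17 libraries stood far from the other 4, and both Th1 libraries were above both Naive libraries. The log2 fold change of 10.34 in Th17 compared to Naive (SE 0.62) was the largest among the 10 genes, and it was 3.07 in Th1 compared to Naive (SE 0.59).

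*Lcn2* encodes lipocalin 2, which binds bacterial siderophores, and lies on chromosome 2 from 32384633 to 32388252. It had 0.161 and 0.0495 CPM in Naive, 118 and 85.9 CPM in Th17 and 0.882 and 1.58 CPM in Th1. The groups were again in the order Th17, Th1, Naive, with no overlap. The log2 fold change was 9.59 in Th17 (SE 0.55) and 3.14 in Th1 (SE 0.53) compared to Naive.

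*Mmp8*, on chromosome 9 from 7558456 to 7568485, encodes neutrophil collagenase. It had 30.8 and 22.5 CPM in Th17, from 2013 and 398 counts. In Naive it had 4 and 1 counts and in Th1 again 4 and 1 counts, so these groups stood near the limit of counting. With replicates pooled, Th1 held 1.10 times the Naive level (95% exact interval 0.253 to 4.77), which leaves a difference of either sign possible at this depth. Th17 held 513 times the Naive level (95% exact interval 219.5 to 1581).

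*Chil3*, also called Ym1, encodes a chitinase-like lectin and lies on chromosome 3 from 106147554 to 106167564. Its level was 1.48 and 0.495 CPM in Naive, 206 and 208 CPM in Th17 and 2.61 and 4.42 CPM in Th1. It was the later-stage gene with the most Naive counts, 101 and 10, and the one whose Th17 replicates were closest. The log2 fold change was 7.58 in Th17 (SE 0.52) and 1.66 in Th1 (SE 0.44) compared to Naive. Its neighbour and close copy *Chil4* had 0 counts in all 6 libraries, and reads that fit both copies equally may not have been counted, so the level of *Chil3* is uncertain to that extent.

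**Figure D2:**
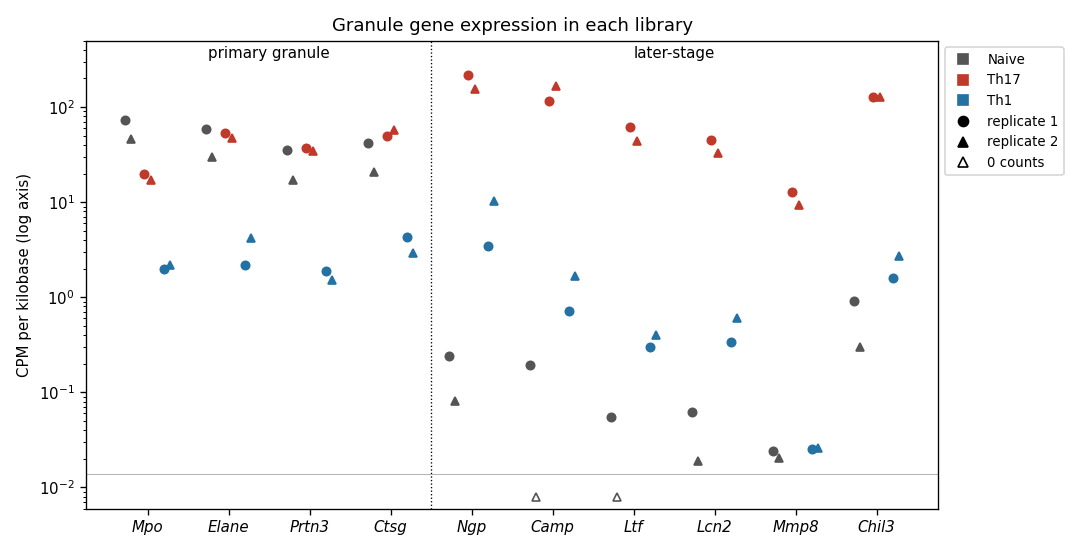
Each point is 1 library, with CPM per kilobase of exon on a log axis for the 10 granule genes, circles for replicate 1, triangles for replicate 2 and open symbols below the line for 0 counts. Each later-stage gene is higher in both Th17 libraries than in the other 4, while the values of Elane and Prtn3 overlap between Naive and Th17.

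Divided by the length of each gene's exons, the levels can also be ordered within a cell type. In Naive, *Mpo* stood at 59.9 ± 18.9 CPM per kilobase, *Elane* at 44.2 ± 19.9, *Ctsg* at 31.3 ± 14.8 and *Prtn3* at 26.1 ± 12.6 (SD, n = 2 each), and neighbours in this order did not differ beyond their spread. *Mpo* was at rank 719 and *Prtn3* at rank 1873 of the 13029 tested genes with a known length. The later-stage genes were between ranks 10224 and 12600 in Naive.

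In Th17 the order per kilobase began with *Ngp* at 187 ± 43.6, *Camp* at 141 ± 35.1 and *Chil3* at 127 ± 0.608 CPM per kilobase, with neighbours in this order overlapping. *Ctsg* (53.5 ± 5.64), *Ltf* (52.7 ± 13.0) and *Elane* (50.5 ± 4.001) followed with overlapping values, and then *Lcn2* (38.8 ± 8.61) and *Prtn3* (36.1 ± 1.70). *Mpo*, the first of the 10 in Naive, was ninth in Th17 at 18.5 ± 1.95 CPM per kilobase, and *Mmp8* was last at 11.0 ± 2.42. *Ngp* was at rank 219 of all 13029 genes in Th17 and *Mmp8* at rank 4010. In Th1, *Ngp* stood at 6.84 ± 4.74 CPM per kilobase, rank 5742, and *Mmp8* at rank 12461.

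The composition of the later-stage group also differed between cell types. *Ngp* held 28.8% and 24.3% of the later-stage counts in Th17 and 45.3% and 58.8% in Th1. *Ltf* had 0.804 and 0.788 counts per count of *Ngp* in Th17 but 0.244 and 0.112 in Th1, and *Lcn2* had 0.444 and 0.451 in Th17 but 0.207 and 0.127 in Th1. *Camp* had 0.331 and 0.659 counts per count of *Ngp* in the Th17 replicates. In Naive, *Chil3* held 63.5% and 71.4% of the few later-stage counts.

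**Figure D3:**
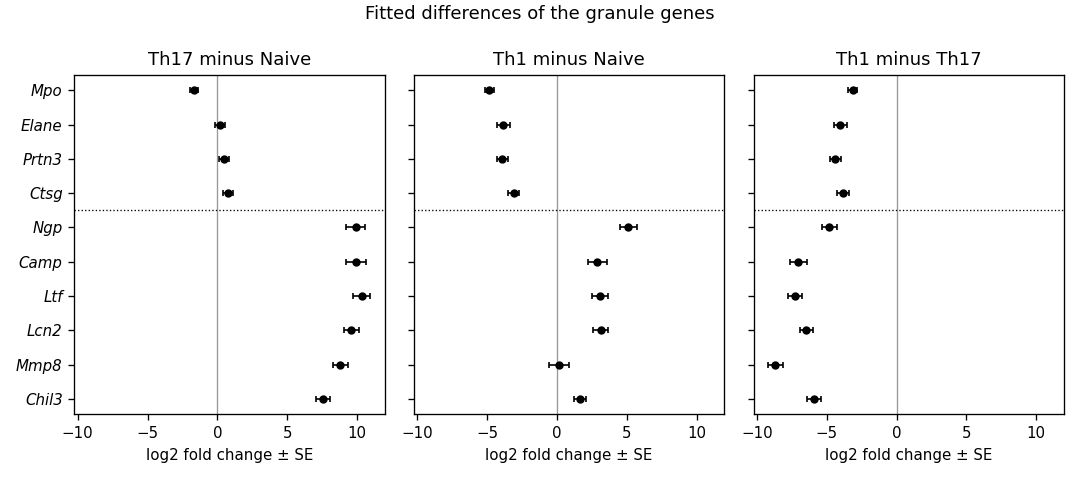
Points are log2 fold changes of the 10 granule genes with their standard errors from a model of all 6 libraries, in 3 panels for Th17 minus Naive, Th1 minus Naive and Th1 minus Th17. The primary granule genes, above the dotted line, sit between -1.69 and 0.77 in Th17 minus Naive and between -4.85 and -3.09 in Th1 minus Naive, while the later-stage genes reach 7.58 to 10.34 and 0.14 to 5.10.

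A gene was called where edgeR's quasi-likelihood F-test gave a Benjamini-Hochberg adjusted p-value under 0.01 over all genes and the absolute log2 fold change was above 1. In Th17 compared to Naive, 6 of the 10 granule genes, the later-stage ones, were called higher, where 4.01% of all tested genes were, and 1, *Mpo*, was called lower, where 1.43% of all were. For Th1 and Naive, *Ngp*, *Ltf* and *Lcn2* were called higher, where 4.64% of all genes were, and the 4 primary granule genes were called lower, where 2.81% of all were. Between Th1 and Th17, 0 were called higher in Th1 and 10 lower, where 2.70% and 2.83% of all genes were. Since the genes were chosen on these levels, nothing is read from these counts. The medians over all tested genes were -0.02, -0.02 and -0.03 in the same order. The 3 comparisons share their libraries, so they are not independent of each other.

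The call of *Mpo* in Th17 compared to Naive was lost without Naive replicate 1 (log2 fold change -1.33) and without either Th17 library (-1.81 and -1.59), and in a replicate block with the Naive numbers crossed, chosen after seeing the data. Between Th1 and Naive, the call of *Ltf* was lost without Th17 replicate 1 or either Th1 library (2.89 to 3.35) and that of *Lcn2* without Naive replicate 1 (4.45), while *Camp* was called without Th1 replicate 1 (3.57) and *Chil3* without Naive replicate 1 (2.78). DESeq2 called both *Camp* and *Chil3* there (3.04 and 1.73). *Ltf* was not called with library size alone as the scaling (2.85), and neither *Ltf* nor *Lcn2* was with only the 4 libraries compared in the fit (3.27 and 3.28).

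The other genes of neutrophil granules were read from a list of 29, of which 27 were tested and *Bpi* and *Ptx3* were too low. The list was chosen with earlier results of these data known, so its calls and p-values are not independent evidence. In Th17 compared to Naive, 18 were called higher, where 4.01% of all tested genes were, and 0 lower, where 1.43% were. The other 9 were not called, and the median log2 fold change was 3.83. Of the 18, *Olfm4*, *Itgb2l*, *Lrg1*, *Retnlg* and *Wfdc21* passed the filter on low counts through the Th17 libraries alone, so their calls support nothing, and of the other 22 genes 13 were called higher, with a median of 3.27. In Th1 compared to Naive, 2 were called higher, *Adam8* and *Chil1*, where 4.64% of all genes were. There 2 were called lower, *Hp* and *Cybb*, where 2.81% of all were, and the median was 0.59. Against Th17, 0 were called higher in Th1, where 2.70% of all genes were, and 17 lower, where 2.83% were. The median was -3.84. Without the same 5 genes, 12 were called lower, with a median of -2.90. In both directions that held 0 calls by edgeR, DESeq2 also called 0 and 0 genes had an unadjusted p-value under 0.05. *Olfm4* had 0 counts in all Naive and Th1 libraries, and with it set at its bound the medians were again 3.83, 0.59 and -3.84. Between Th1 and Naive, 2 were called without either Th17 library and 6 without Th1 replicate 1, in place of 4.

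Among the secondary and tertiary granule genes of that list, *Cd177*, a surface protein stored in specific granules, had 1.04 and 1.68 CPM in Naive, 46.8 and 27.7 CPM in Th17 and 0.108 and 0.379 CPM in Th1. It rose in Th17 compared to Naive by 4.81 on the log2 scale (SE 0.54, edgeR adjusted p = 0.000559). *Hp*, the gene of haptoglobin, had 7.0 and 3.37 CPM in Naive, 52.0 and 49.8 CPM in Th17 and 0.572 and 0.442 CPM in Th1. It rose in Th17 (3.28, SE 0.40, edgeR adjusted p = 0.000846) and fell in Th1 (-3.31, SE 0.44, adjusted p = 0.00112), both compared to Naive. For both genes the Th17 libraries were the highest and the Th1 libraries the lowest. *Ngp*, *Camp*, *Ltf*, *Lcn2* and *Chil3* were instead lowest in Naive, which only describes genes chosen on these levels. *Camp*, *Ltf* and *Lcn2* had at most 13 counts in a Naive library.

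Other genes of the list had almost no counts in Naive, like the later-stage granule genes themselves. *Wfdc21*, *Retnlg* and *Olfm4* passed the filter on low counts through Th17 alone, so their ratios are a description and support nothing. *Wfdc21* had 1 and 0 counts in Naive against 31.5 and 46.0 CPM in Th17, a pooled ratio of 3055 with a 95% exact interval of 548 to 120700. *Chil1*, a chitinase-like gene of specific granules, had 1 and 0 counts in Naive against 13.0 and 10.6 CPM in Th17, a pooled ratio of 1106 (198 to 43740). *Retnlg* likewise had 1 and 0 counts in Naive, and its pooled ratio was 553 (98.85 to 21890). *Olfm4*, which marks a subset of neutrophils, was at least 58.65-fold higher in Th17 than in Naive and at least 47.85-fold higher than in Th1, computed from group means against the mean limit of 3 counts per library.

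*Itgb2l* and *Lrg1* followed the same order. Both also passed the filter through the Th17 libraries alone, so their ratios are likewise only a description. *Itgb2l*, which encodes an integrin beta chain, had 3 and 0 counts in Naive and 14.1 and 9.16 CPM in Th17 (pooled ratio 384, 95% exact interval 131 to 1865). *Lrg1* had 2 and 2 counts in Naive and 8.75 and 7.24 CPM in Th17 (pooled ratio 186, 95% exact interval 72.4 to 685). *Lyz2*, the lysozyme gene, which macrophages also express, had 25.8 and 8.91 CPM in Naive, 223 and 762 CPM in Th17 and 6.31 and 10.6 CPM in Th1. It rose in Th17 compared to Naive (4.81, SE 0.69, edgeR adjusted p = 0.00185).

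Genes that process, pack or inhibit the primary granule proteases did not share one pattern. *Ctsc*, whose product activates the granule serine proteases, had 59.7 and 58.8 CPM in Naive, 74.1 and 97.7 CPM in Th17 and 76.5 and 82.9 CPM in Th1, and was not called in any comparison. *Srgn*, the granule proteoglycan serglycin, had 254 and 200.2 CPM in Naive, 512 and 693 CPM in Th17 and 417 and 576 CPM in Th1 and was not called either. *Serpinb1a*, an inhibitor of elastase, cathepsin G and proteinase 3, had 10.3 and 4.21 CPM in Naive, 106 and 147 CPM in Th17 and 10.6 and 5.37 CPM in Th1. It rose in Th17 compared to Naive by 4.11 (SE 0.50, edgeR adjusted p = 0.000781) and was lower in Th1 than in Th17 (-3.96, SE 0.49, adjusted p = 0.000979). In Th1, then, the inhibitor was near its Naive level while its targets *Elane*, *Ctsg* and *Prtn3* were far below theirs.

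**Figure D4:**
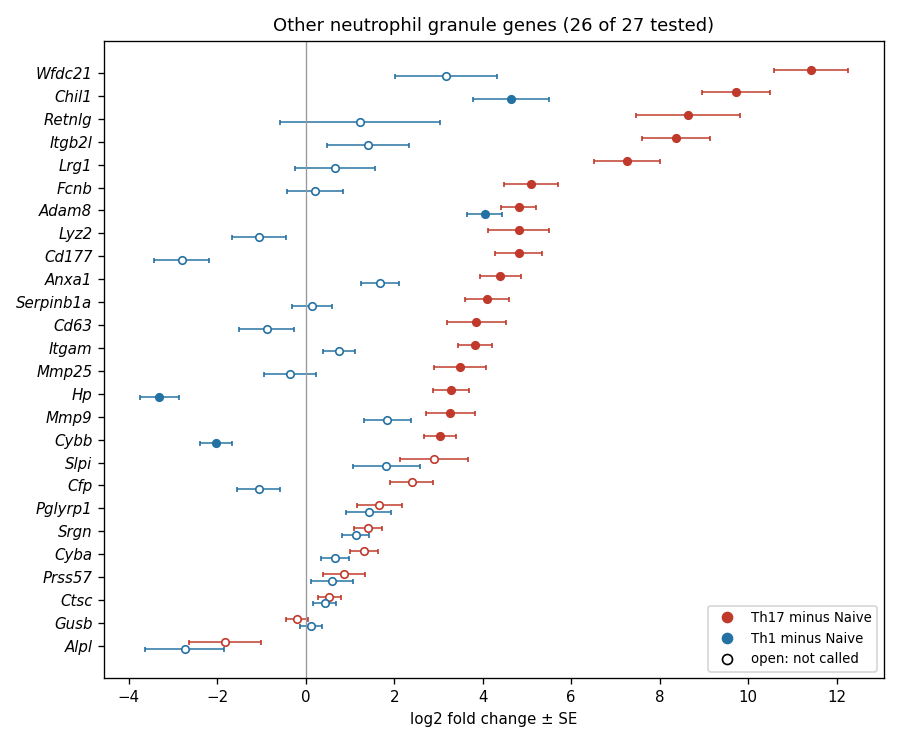
Points are log2 fold changes with standard errors for 26 of the 27 other granule genes tested, in Th17 minus Naive and Th1 minus Naive, with open symbols for genes not called and Olfm4 left out because it had 0 counts in Naive and Th1. In Th17 minus Naive 17 of the plotted genes are called higher, 4 of which passed the filter on low counts through Th17 alone, whereas in Th1 minus Naive 4 are called, 2 on each side of 0.

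The regulators of granulocyte development formed a list of 12 genes, all tested. It too was chosen with earlier results of these data known, so its calls and p-values are not independent evidence. In Th17 compared to Naive, 3 were called higher, *Cebpd*, *Cebpe* and *Csf2rb*, where 4.01% of all tested genes were. There 0 were called lower, where 1.43% of all were, and the median log2 fold change was 0.24. DESeq2 also called 0 lower, and 2 were lower by edgeR at an unadjusted p-value under 0.05. In Th1 compared to Naive, 2 were called higher, *Cebpd* and *Irf8*, where 4.64% of all genes were. There 5 were called lower, *Cebpa*, *Cebpe*, *Csf3r*, *Myb* and *Spi1*, where 2.81% of all were, and the median was -0.56. Against Th17, 1 was called higher in Th1, *Irf8*, where 2.70% of all genes were. There 3 were called lower, *Cebpe*, *Csf3r* and *Spi1*, where 2.83% of all were, and the median was -1.13.

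*Cebpe* encodes C/EBP-ε, the factor that the secondary granule genes require. It had 3.48 and 1.58 CPM in Naive, 28.7 and 19.6 CPM in Th17 and 0.340 and 0.253 CPM in Th1. It rose in Th17 (log2 fold change 3.22, SE 0.47, edgeR adjusted p = 0.00206) and fell in Th1 (-3.04, SE 0.53, adjusted p = 0.00412), both compared to Naive. The Th1 libraries, with the lowest *Cebpe*, held more *Ngp*, *Ltf*, *Camp* and *Lcn2* than the Naive libraries did. Several of these levels rest on few counts, and a link between *Cebpe* and these genes was not tested.

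*Cebpa*, *Spi1* and *Myb* act at the progenitor and promyelocyte stages. *Myb* had 182 and 92.9 CPM in Naive, 51.9 and 38.4 CPM in Th17 and 23.6 and 5.37 CPM in Th1, the same order of cell types as *Mpo*. It fell in Th1 compared to Naive by 3.22 on the log2 scale (edgeR adjusted p = 0.00606), and its log2 fold change of -1.60 in Th17 was not called (adjusted p = 0.0814). *Spi1*, the gene of PU.1, had 19.5 and 6.29 CPM in Naive, 33.2 and 28.9 CPM in Th17 and 1.61 and 1.83 CPM in Th1, and fell in Th1 compared to Naive (-2.93, SE 0.52, edgeR adjusted p = 0.00443). *Gfi1*, a repressor that T cells also express, had between 24.0 and 42.7 CPM in all 6 libraries and was not called. Between Th1 and Naive, 2 regulators were called higher and 0 lower without Naive replicate 1, so that the 5 lower calls, those of *Cebpe*, *Myb* and *Spi1* among them, were lost. Without Th1 replicate 1, 1 was called higher and 1 lower. Between Th1 and Th17, 2 were called without Th17 replicate 1, in place of 4.

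Markers of the cell types that such a preparation could hold were read as summed CPM per library, since the granule genes are not typical of T cells. All 7 T cell markers, among them *Cd3e* and *Cd4*, were above 10 CPM in every library, and their sum lay between 2736 and 4106 CPM. Of 12 mature neutrophil markers, 11 were matched, and their sum was 22.4 and 13.6 CPM in Naive, 2339 and 2408 CPM in Th17 and 64.8 and 86.7 CPM in Th1. Of the Th17 sums, *S100a8* and *S100a9* made up 1149 and 1142 CPM and 1039 and 1060 CPM. *Csf3r*, the G-CSF receptor of neutrophils, had 1.69 and 1.04 CPM in Naive, 5.66 and 2.88 CPM in Th17 and 0.0773 and 0 CPM in Th1. It was not called in Th17 compared to Naive. *Mmp9*, *Retnlg* and *Itgam* are also on the list of other granule genes, and *Csf3r* is on that of the regulators. *Cxcr2* was highest in Th1, at 36.2 and 34.9 CPM, against 12.8 and 8.03 CPM in Th17. The mature neutrophil list and the later-stage genes were both highest in Th17, and the part of such cells in the result was not tested.

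The granulocyte progenitor markers, 6 genes, summed to 135 and 45.0 CPM in Naive, 71.1 and 74.2 CPM in Th17 and 29.7 and 26.4 CPM in Th1. *Ms4a3*, which marks granulocyte and monocyte progenitors, had 10.6 and 4.11 CPM in Naive, 33.8 and 40.5 CPM in Th17 and 1.10 and 0.316 CPM in Th1. *Kit*, which progenitors and mast cells carry, had 99.8 and 29.6 CPM in Naive, the main part of that sum, against 12.8 and 11.4 CPM in Th17 and 23.7 and 22.4 CPM in Th1. *Flt3* was likewise lower in Th17 than in Naive, at 1.24 and 1.47 against 6.65 and 2.48 CPM, so the members of this list did not move together. All 4 primary granule genes were higher in Naive replicate 1 than in replicate 2, by 1.57 times for *Mpo* and 1.94 to 2.03 times for the 3 proteases. The progenitor sum was 3.01 times and the erythroid marker sum 5.82 times as high in that library, at 601 against 103 CPM. *Car1* was the main part of the erythroid sum, at 463 and 85.8 CPM. The globin genes *Hba-a1*, *Hba-a2*, *Hbb-bs* and *Hbb-bt* had 0 counts in every library. The eosinophil sum was 4.14 times, the mast cell and basophil sum 2.98 times and the monocyte and macrophage sum 2.05 times as high in Naive replicate 1. The mature neutrophil sum was 1.65 times, the B cell sum 1.61 times, the later-stage sum 3.37 times and the T cell sum 0.764 times as high there. All of these sums but that of the T cell markers moved with the primary granule genes between the Naive replicates. The T cell sum moved the other way, and the part of any of them in the difference was not tested.

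Between the Th17 replicates, the monocyte and macrophage, mast cell and basophil, and eosinophil sums differed more than the summed granule genes did. The sum of the 12 monocyte and macrophage markers was 247 and 824 CPM, with *Lyz2* its main part, the mast cell and basophil sum was 229 and 474 CPM and the eosinophil sum was 71.8 and 199.7 CPM. The primary granule sum was 1.05 times and the later-stage sum 1.18 times as high in Th17 replicate 1 as in replicate 2, with single genes between 0.7001 times for *Camp* and 1.42 times for *Ltf*. In Th1, the monocyte and macrophage sum was 16.8 and 15.4 CPM and the eosinophil sum 1.25 and 0.569 CPM. The B cell markers, 4 genes, were between 2.40 and 15.1 CPM in sum over the 6 libraries.

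**Figure D5:**
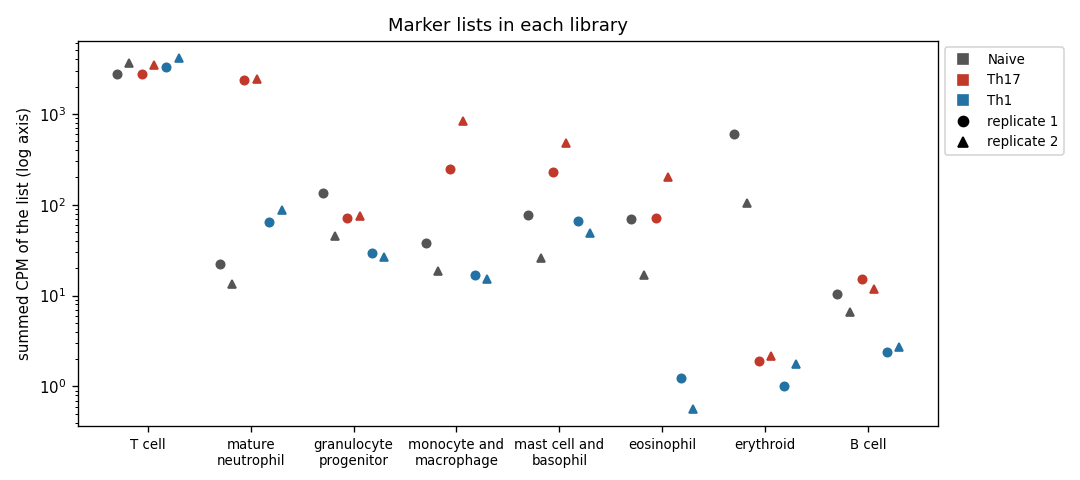
Each point is the summed CPM (log axis) of a marker list in 1 library, with circles for replicate 1 and triangles for replicate 2. T cell markers are level across the libraries, mature neutrophil markers are highest in Th17, and granulocyte progenitor and erythroid markers are highest in Naive replicate 1.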

How the data were processed

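Expression was measured by RNA-Seq in 2 replicate libraries per cell type (Naive, Th17, Th1). Per the labels the libraries were made with poly-T priming and Smart-seq2, which the methods do not name. The authors aligned paired-end reads to mm10 with Hisat2 (2.2.1) and counted them per gene with HTSeq (0.13.5), and the raw counts were deposited without normalization. The methods state removal of duplicates and default counting, while the supplementary code shows no such removal and a reverse-strand setting, which could change the counts. Here edgeR 4.0.16 (R 4.3.3) was used with filterByExpr, TMM scaling and the quasi-likelihood F-test in 1 model of the 6 libraries that had no term but cell type. Fold changes used edgeR's default prior count, and the log2 CPM profiles behind the nearest genes used a prior count of 2. *Chi3l1* and *Adgre1* were listed as *Chil1* and *Emr1*. *Ly6g* and the erythroid marker *Ahsp* were not matched. Lengths and positions came from GENCODE vM21. The members and lists were chosen with earlier results of these data known. Named genes were the members, at most 8 called genes of each list by the largest change, genes with a role a sentence needed, neighbours and the genes with the nearest profiles. The model was tested on simulated data. Alternatives included DESeq2 1.42.0, other scalings and filters, a replicate block, the ratio by other sums, and each library left out.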

Additional observations from a re-analysis of the deposited data

How the results depend on the processing

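Of the log2 fold changes of the 10 members, 384 values under the alternatives kept sign and call, 9 gained and 10 lost the call, and 2 that were not called changed sign, those of *Elane* in Th17 compared to Naive without Naive replicate 2 (-0.21) and of *Mmp8* in Th1 compared to Naive with library size alone (-0.06). Of the other named genes, 389 kept both and 36 lost the call. The count over all genes was 739 in Th17 compared to Naive, and 1717 by DESeq2, 2154 with no filter, 369 with at least 10 counts in every library, 2063 at an adjusted p-value under 0.05 and 316 to 1042 with 1 library left out. Between Th1 and Naive it was 1014, and 1917, 2259 and 2164 by DESeq2, with no filter and at 0.05, and 593 to 883 with 1 library left out. Between Th1 and Th17 it was 752, and 1797, 2232, 442 and 2112 in the order given first, and 187 to 1061 with 1 library left out. With at least 10 counts in every library, which removes genes that are low in any group, 2, 4 and 5 members were called in place of 7, 7 and 10, and 9, 2 and 8 other granule genes in place of 18, 4 and 17. Between Th1 and Naive, other granule genes numbered 8 by DESeq2, 11 with no filter, 8 at 0.05, 2 with only the 4 libraries compared and 2 to 6 with 1 library left out. Regulators in the same comparison numbered 4 with only those 4 libraries and 2 to 7 with 1 left out, in place of 7. Between Th1 and Th17 they numbered 7 with no filter, 2 with at least 10 counts and 2 to 6 with 1 left out, in place of 4. Same-numbered libraries deviated with correlations of -0.231, 0.168 and 0.0766, so the numbers were not taken as pairs. With the replicate block 7 regulators were called between Th1 and Th17 in place of 4. With the Naive numbers crossed, chosen after seeing the data, 376 genes and 1 regulator were called in Th17 compared to Naive, and of the members 6 higher and 0 lower, so that the call of *Mpo* was lost. The log2 ratio of primary to later-stage sums, taken instead as a mean of log2 CPM, was 6.39 in Naive, -1.001 in Th17 and 1.13 in Th1. Without *Chil3* it was 9.58 in Naive and -1.47 in Th17, and without *Mpo* 6.49, -2.34 and, in Th1, -0.52. With 1 library left out the Th1 ratio was -0.29 to 0.83. The causes of these shifts were not tested. With 1 library left out, the lone library of a cell type is assumed to vary like the others.

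Depth limits the later-stage genes in Naive and *Mmp8* in Th1, where several libraries hold 0 to 4 counts. With 2 libraries in each cell type, an exact permutation test of a single value cannot pass these thresholds, and the deeper library is replicate 1 in every cell type. The counts do not show how reads of near copies, such as *Chil3* and *Chil4*, were split.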

Other observations

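The genes beside the granule genes on their chromosomes mostly did not share their pattern. *Lpo*, a peroxidase gene 2016 bases from *Mpo*, had at most 3 counts in any library. *Cfd*, the next gene after *Elane*, had 0 counts in all libraries, although *Elane* and *Prtn3* beside it were expressed. *Mcpt8*, a basophil protease gene in the same cluster as *Ctsg*, had 7.59 and 1.19 CPM in Naive, 66.0 and 118 CPM in Th17 and 12.1 and 12.3 CPM in Th1, and rose in Th17 compared to Naive (log2 fold change 4.34, edgeR adjusted p = 0.00338). *Mmp10*, which neighbours *Mmp8*, had 0.103 and 0 CPM in Naive against 1.64 and 5.60 CPM in Th17 and 0.232 and 0.758 CPM in Th1, from 7 and 0 counts in Naive. *Scap*, *Ptpn23*, *Klhl18* and *Kif9* around *Ngp* were not called in that comparison.

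The genes whose centred log2 CPM profile over the 6 libraries lay nearest to the mean of the later-stage genes were *Crispld2* (distance 1.21), *2010005H15Rik* (1.42), *Chil1* (2.02), *Lipg* (2.06) and *Itgb2l* (2.13), out of 13597 genes compared, where the members themselves lay between 0.387 and 2.90. *Crispld2* had 6 and 0 counts in Naive, 38.2 and 24.6 CPM in Th17 and 0.186 and 0.253 CPM in Th1. Nearest to the primary granule genes lay *Ttc39a* (0.834), *Gria3* (0.853), *Ptpro* (0.867), *Csf1r* (0.954) and *Hnmt* (0.969), with members between 0.664 and 1.68. *Csf1r*, the receptor of macrophage colony-stimulating factor, had 7.41 and 4.80 CPM in Naive, 5.34 and 11.7 CPM in Th17 and 0.418 and 0.442 CPM in Th1. *Ttc39a*, *Ptpro* and *Hnmt* had 0 counts in both Th1 libraries and at most 0.924 CPM, or 63 counts, in any other. Their profiles thus rest on few counts. These distances are descriptions over 6 libraries and carry no test.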
